A study of Mus musculus with 4 samples.

Results

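Immature CD4 single-positive thymocytes were described here as 1546 cells of the 23210 cells that passed filtering in a single-cell RNA series of mouse thymus. The name is used for CD4 single-positive cells that recently passed positive selection, though time since selection was not measured here. The cells were taken from the 2 libraries of the CD25- sort. One library was labelled PD-1 knockout and gave 601 of these cells. The other was wild type (WT) and gave 945. Members were chosen by measured transcripts: at least 2 UMIs (unique molecular identifiers, each marking 1 captured transcript) of Itm2a and Ccr9 together, and at least 2 times as many of these as of Klf2 and S1pr1 together. Cells with any Foxp3 UMI, with 2 or more Ikzf2 UMIs, or with 3 or more Mki67 UMIs were left out, which sets aside regulatory T cells, Helios-high cells and cycling cells. Barcodes had to hold at least 500 genes and less than 10% mitochondrial UMIs.

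Both libraries came from C57BL/6J mice aged 3 weeks, the first from PD-1 knockout animals and the second from WT animals by their labels. Each genotype is a single pool of 4 thymi, from which cells with CD8 were removed with biotinylated antibodies and spheres before live CD4+ HSA+ CD73- CD25- cells were sorted. HSA is the heat-stable antigen encoded by Cd24a. CD74 stands in place of CD73 in the list of antibodies, which leaves the CD73 gate uncertain. The other 2 libraries of the series hold the CD25+ sort of the same genotypes and are used only for the count of all cells. The deleted stretch of Pdcd1 is not stated in the labels. With 1 library per genotype there is no replicate check, every difference below is between libraries, and intervals are 95% intervals for counting error only.

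After positive selection, a CD4 thymocyte moves from the cortex to the medulla and matures there for some days before it leaves. Early single-positive cells carry CD69, CD24 and CCR9 and CCR4, receptors for chemokines made in the thymus. Later cells switch on the transcription factor KLF2, which drives the egress receptor S1PR1, gain MHC class I at the surface, and become responsive to interferon. CD69 binds S1PR1 and holds it off the surface, so the early cells are retained. PD-1, encoded by Pdcd1, is an inhibitory receptor that dampens signals from the T cell receptor.

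Members made up 34.0% of the 1767 kept knockout-labelled cells (interval 31.8 to 36.3) and 30.3% of the 3118 kept WT cells (28.7 to 32.0). Filtering left out 50.6% of the knockout-labelled and 41.3% of the WT barcodes. With every cell thinned to 1500 UMIs and shallower cells left out, the shares were 34.8% of 1674 knockout-labelled cells and 29.0% of 2576 WT cells. The whole rule was applied to the thinned counts, so its exclusions caught fewer cells. They left out 5.50% of knockout-labelled and 4.66% of WT cells, against 16.0% and 9.72% without thinning. Cells excluded at full depth could therefore count as members in the thinned shares. Members held a median of 6545 UMIs in the knockout-labelled and 5179 UMIs in the WT library, and 4091713 and 4838879 UMIs in all. The mirrored rule, Klf2 and S1pr1 in excess over Itm2a and Ccr9, gave 544 knockout-labelled and 1017 WT cells, called mature below. Cells that met neither rule numbered 339 in the knockout-labelled library, at a median of 5366 UMIs, and 853 in the WT library, at a median of 1744 UMIs and 5.28% mitochondrial UMIs. With at least 1000 genes and under 5% mitochondrial UMIs, the shares were 35.6% in the knockout-labelled and 35.7% in the WT library, and among cells of 3000 to under 9000 UMIs 36.2% and 36.3%, so the difference in share was not seen under these filters. The exclusions removed 111 knockout-labelled and 87 WT cells that met the Itm2a and Ccr9 rule, of which 91 and 72 failed on Ikzf2. The 2 CD25- libraries shared 4 barcodes among kept cells, and 19 knockout-labelled and 25 WT members shared a barcode with any other library of the series.

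**Figure D1:**
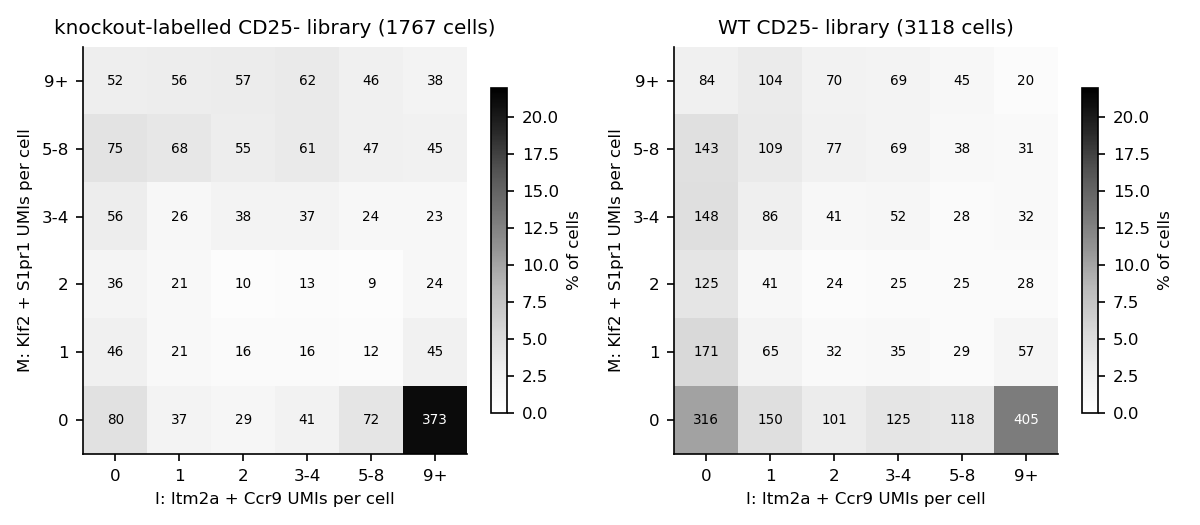
Cells of each CD25- library by the 2 scores of the rule, knockout-labelled at left and WT at right. Columns are Itm2a plus Ccr9 UMIs per cell, rows are Klf2 plus S1pr1 UMIs per cell, the printed number is the count of cells and the shade its percent of the library's kept cells. The fullest square in both panels is at 9 or more Itm2a plus Ccr9 UMIs and no Klf2 or S1pr1 UMI, and the WT panel also holds 316 cells with none of the 4 transcripts.

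Most members lay far from the threshold. The median sum of Itm2a and Ccr9 was 19 UMIs in knockout-labelled members, which ranged up to 189, and 9 UMIs in WT members, which ranged up to 133. No Klf2 or S1pr1 UMI was found in 452 of 601 knockout-labelled and 694 of 945 WT members. Both Itm2a and Ccr9 were seen in 81.0% and 68.6% of them. Exactly 2 UMIs, the lowest score allowed, were seen in 36 knockout-labelled and 125 WT members. Just inside the threshold (a score of 2 or 3 with at most 1 Klf2 or S1pr1 UMI), H2-K1 was at 2040 CPM in 55 knockout-labelled cells and 1457 CPM in 150 WT cells of at least 1500 UMIs. Just outside it (a score of 1 and no Klf2 or S1pr1 UMI) H2-K1 was at 1758 CPM in 20 knockout-labelled and 990 CPM in 67 WT cells. All 4 values were above the level over all members (914 and 766 CPM), and the inside value was the higher of the pair in both libraries.

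The targeted gene was checked first. Pdcd1 (ENSMUSG00000026285, minus strand of chromosome 1) was at 33.7 CPM in knockout-labelled members (138 UMIs, interval 28.3 to 39.8) and at 22.3 CPM in WT members (108 UMIs, 18.3 to 26.9), where CPM is counts of the gene per 1000000 UMIs of the class. It was at 4.14 CPM in knockout-labelled mature cells and at 7.74 CPM in WT mature cells. Transcripts of the gene were therefore not lower in the knockout-labelled members. Reads of a 5′ library can lie outside a deleted part, so these values say nothing about the genotype of the cells.

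The 4 markers given for the cell type set the members apart from mature cells. Of these, Itm2a and Ccr9 were in the rule and are a description of it. Itm2a, a small membrane protein induced during positive selection (minus strand of chromosome X, 107397099 to 107403376 in mm10), was at 3332 CPM in knockout-labelled and 2766 CPM in WT members, against 191 and 167 CPM in mature cells of the same libraries. Ccr9, the receptor for the thymic chemokine CCL25 (chromosome 9, 123678439 to 123784330), was at 652 and 549 CPM in members and at 24.8 and 28.6 CPM in mature cells. The 2 markers outside the rule moved the same way. Ccr4, the receptor for CCL17 and CCL22 (minus strand of chromosome 9, 114490316 to 114504916), was at 72.6 CPM in knockout-labelled members (interval 64.6 to 81.3) and 70.7 CPM in WT members (63.4 to 78.6), against 4 and 10 UMIs in all mature cells. Cd69 (minus strand of chromosome 6, 129267325 to 129275436) was at 207 and 164 CPM in members and 73.5 and 78.8 CPM in mature cells, 2.82 times as high in the knockout-labelled and 2.08 times as high in the WT library.

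Per cell, Ccr4 was seldom captured. At 1500 UMIs per cell, 10.7% of knockout-labelled and 8.34% of WT members held a Ccr4 UMI, against 0.377% and 0.319% of mature cells. Without thinning the shares were 30.3% and 21.9% of members and 0.735% and 0.983% of mature cells, at median depths of 6545, 5179, 6279.5 and 5259 UMIs. Both groups of members stood above the mature cells by more than counting error. Cd4 was at 344 and 398 CPM in members, Cd8a at 13.7 and 15.3 CPM, and Rag1 at 2 and 14 UMIs in all, of which 8 WT UMIs were in a single cell. At 1500 UMIs per cell, 37.9% of knockout-labelled members (interval 33.9 to 41.9) and 46.2% of WT members (42.8 to 49.6) held a Cd4 UMI. Cd8a was higher than in mature cells (0.591 and 1.35 CPM). Cd8b1, the other CD8 chain, was at 44.7 and 57.9 CPM in members and 54.1 and 47.0 CPM in mature cells, and 122 of 601 knockout-labelled and 156 of 945 WT members held a UMI of it. The 13 double-positive markers summed to 321 and 381 CPM in members and 254 and 259 CPM in mature cells, and none of the 4 entered was called between the classes. With no minimum level, 5 of 9 entered were called higher in members and none lower, with median log2 ratios of 0.91 and 0.95. Transcripts of double-positive cells were thus not absent from members, and their part in the results was not tested.

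Il7r, listed as a marker of mature cells, went the other way. It encodes the interleukin-7 receptor alpha chain, which double-positive cells lack and which returns after positive selection. Il7r was at 606 CPM in knockout-labelled and 651 CPM in WT members, against 223 and 288 CPM in mature cells. Ccr7, the receptor that draws cells into the medulla, was at 341 and 420 CPM in members and at 594 and 638 CPM in mature cells. Cd24a was at 52.8 and 63.0 CPM in members and at 4.73 and 5.23 CPM in mature cells, 11.2 and 12.1 times as high, although every cell had been sorted as HSA+.

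**Figure D2:**
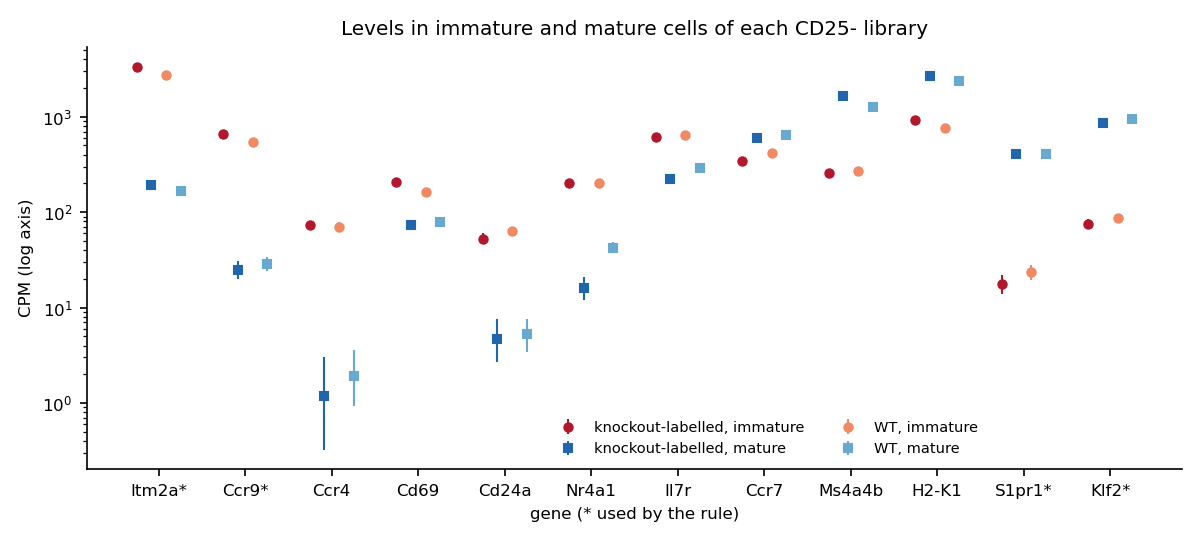
CPM of 12 genes on a log axis in immature (circles) and mature (squares) cells of each CD25- library, with exact Poisson intervals for counting error. The 4 genes marked with an asterisk were used by the rule; Ccr4, Cd69, Cd24a, Nr4a1 and Il7r are higher in immature cells of both libraries, and Ccr7, Ms4a4b and H2-K1 are lower.

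Across the transcriptome, 482 of 6683 genes were at least 1.5-fold higher in immature than in mature cells of both libraries, which is 7.21% of the genes entered, and 385 were at least 1.5-fold lower, which is 5.76%. Of these, 2 in each direction are genes of the rule, so 480 and 383 are not. A gene entered at 20 CPM or more in either class and at least 20 UMIs in each library. Because the classes were cut from transcripts of the same cells, these counts describe the classes and are not a test. The ratio of the median gene was 0.16 on the log2 scale in the knockout-labelled and 0.11 in the WT library. When that shift was taken out, 308 genes were higher and 504 lower. A total that left out receptor segments and the mitochondrial and ribosomal protein genes gave 444 higher and 501 lower.

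The 12 genes highest in members by the rule for named genes were a mixed group. Nrgn, which encodes the calmodulin-binding protein neurogranin known from neurons, was at 170 CPM in knockout-labelled and 57.7 CPM in WT members, against 5 and 6 UMIs in all mature cells. Asb2, a substrate-binding part of a ubiquitin ligase, was at 50.1 and 56.2 CPM in members, against 1 and 6 UMIs in mature cells. Chl1, a neural cell adhesion molecule, was at 117 and 120 CPM in members and at 5.61 and 9.48 CPM in mature cells. Myo6, an unconventional myosin, was at 70.6 and 32.9 CPM in members and 4.14 and 1.55 CPM in mature cells. The transcription regulator Id2, an inhibitor of E proteins, was at 337 and 351 CPM in members and 44.0 and 37.9 CPM in mature cells, 7.65-fold and 9.26-fold higher. F13a1, a coagulation factor subunit, Chdh, a choline dehydrogenase, Marcksl1, Eng and Ctla2a completed the 12 highest with Ccr4 and Cd24a. The smallest ratio among these 12 genes was that of Eng in the WT library, at 6.32-fold.

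Of 18 genes of the T cell receptor response entered, 9 were higher in members, 1 was lower and 8 were not called, with a median log2 ratio of 0.80 in the knockout-labelled and 0.63 in the WT library. Nr4a1 (chromosome 15, 101254269 to 101274795), an orphan nuclear receptor induced by receptor signals, was at 201 and 204 CPM in members, against 15.9 and 42.4 CPM in mature cells. Egr1 and Egr2, zinc-finger factors of the same response, were at 286 and 235 CPM and at 67 and 38.0 CPM in members. In mature cells they were at 82.1 and 75.3 CPM and at 8.57 and 10.6 CPM. Cd5, a negative regulator whose level follows receptor signal strength, was at 643 and 781 CPM in members and 351 and 477 CPM in mature cells. Nr4a3, Dusp5, Nfkbid, Tnfrsf9 and Cd69 were the other genes called higher. Tnfaip3, the NF-kB inhibitor A20, was the lower gene, at 44.5 and 56.2 CPM in members and 73.0 and 93.5 CPM in mature cells.

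Of 13 CD4 and CD8 lineage regulators entered, 6 were higher in members and none was lower, and 2 stayed higher when the median gene was taken as 0. Tox, needed for CD4 lineage development, was at 620 and 642 CPM in members and at 163 and 202 CPM in mature cells. Gata3, which acts upstream of the CD4 lineage factor ThPOK, was at 120 and 103 CPM in members and at 50.5 and 38.5 CPM in mature cells. Zbtb7b, which encodes ThPOK, was at 112 and 151 CPM in members and 68.5 and 88.8 CPM in mature cells. Runx3, the CD8 lineage factor, was at 43.5 and 41.3 CPM in members and 41.6 and 43.0 CPM in mature cells. Among 17 genes listed for early single-positive cells, 7 were higher and 4 lower. Satb1, a chromatin organizer, was at 2206 and 2470 CPM in members, against 700.3 and 1006 CPM in mature cells, while Rflnb on the same list was 14.5-fold and 8.28-fold lower in members.

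Genes of survival and death were called in 1 direction alone. Of 12 entered, 5 were higher and none lower. The higher genes included Bcl2l11 and Bbc3, which encode the death inducers BIM and PUMA, and Bcl2l1 and Bcl2a1b, which are protective. Bcl2l11 was at 40.6 and 47.9 CPM in members and 17.4 and 20.5 CPM in mature cells. All 5 were below 50 CPM, and with a minimum of 50 CPM no gene of the list was called. Bcl2, which is protective, was 1.48-fold higher in knockout-labelled and 2.65-fold higher in WT members, so it was not called in both. Of the proliferation genes, 4 of 9 were higher (Mcm5, Rrm1, Stmn1 and Tubb5), although cells with 3 or more Mki67 UMIs had been left out. Chemokine and egress receptors divided by stage: Ccr8, Gpr183 and Plxnd1 joined Ccr4 among the higher, and Ccr7 and S1pr4 were lower. Ccr8 was at 146 and 132 CPM in members and 32.5 and 47.2 CPM in mature cells. S1pr4 was at 21.8 and 16.1 CPM in members and 161 and 133 CPM in mature cells.

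The genes most reduced in members belonged in part to maturation. Of 16 mature and egress genes entered, 10 were lower and 1, Il7r, was higher, with medians of -1.51 in the knockout-labelled and -1.32 in the WT library. Ms4a4b, a membrane protein of late thymocytes, was at 260 and 271 CPM in members and at 1641 and 1262 CPM in mature cells. The factors Klf3 and Foxo1, the second of which drives Klf2, were at 29.8 and 34.1 CPM and at 97.8 and 106 CPM in members. In mature cells Klf3 was at 179 and 146 CPM and Foxo1 at 288 and 290 CPM. Among the 12 lowest, Pdlim4, a cytoskeletal adaptor, had 15 and 8 UMIs in members and was at 63.8 and 29.2 CPM in mature cells. Igfbp4, a binding protein for insulin-like growth factors, was at 207 and 158 CPM in members and 1357 and 950.5 CPM in mature cells. The others were Emc9, Rflnb, S1pr4, Sntb1, Arsb, Ifit3, St8sia6, Ifit1bl1, Gramd3 and H2-Q7, and the smallest ratio among the 12 was 5.53-fold lower, for H2-Q7 in the knockout-labelled library.

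MHC class I and interferon response genes were mostly lower in members. Of 11 class I genes entered, 6 were lower and none higher, with medians of -0.87 and -0.74. H2-K1, a classical class I heavy chain (minus strand of chromosome 17, 33996017 to 34000347), was at 914 and 766 CPM in members and 2705 and 2383 CPM in mature cells. B2m, the light chain, was at 1214 and 996 CPM in members and 2324 and 1865 CPM in mature cells. At 1500 UMIs per cell, 52.0% of knockout-labelled and 45.1% of WT members held an H2-K1 UMI, against 96.8% and 94.0% of mature cells. Of 16 interferon response genes entered, 14 were lower and none higher, with medians of -1.11 and -1.06, and the count was 12 to 15 in every setting tried. Ifi27l2a was at 886 and 563 CPM in members and 2649 and 1718 CPM in mature cells. Class I genes and the Ifit and Ifi families have near-identical copies, so counts may be divided among copies and single members of these families are uncertain.

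**Figure D3:**
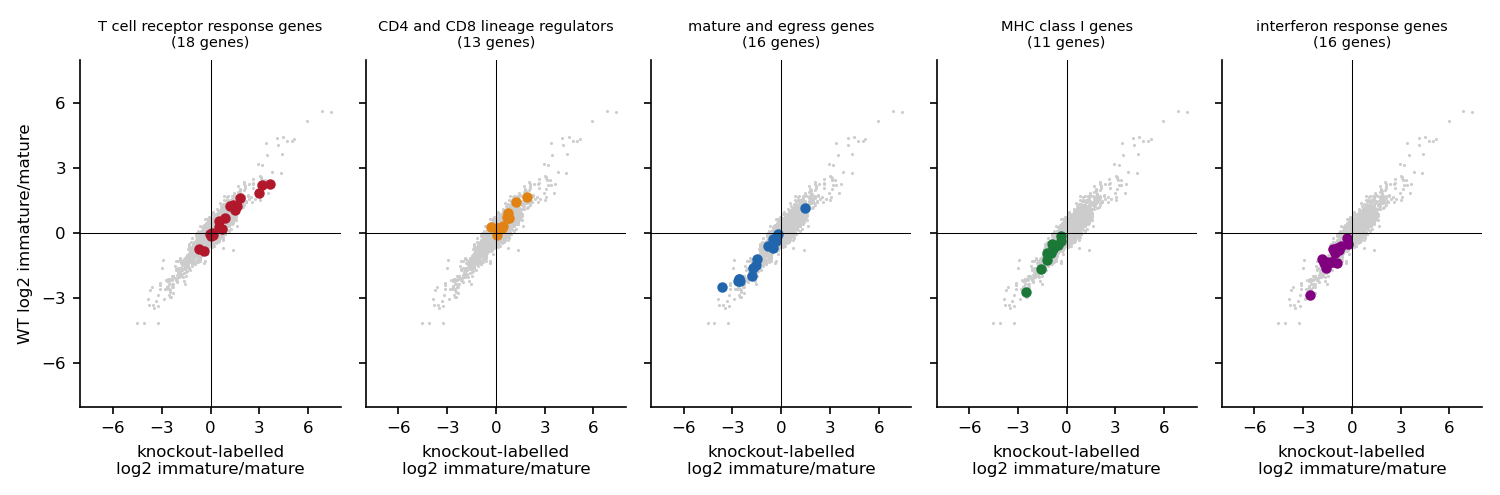
Log2 ratio of immature over mature CPM in the knockout-labelled (horizontal) and WT (vertical) library for all 6683 genes entered (grey) and for 5 gene lists (coloured, 1 panel each). All 16 interferon response and 11 MHC class I genes entered lie below 0 in both libraries, and 9 of the 18 T cell receptor response genes are at least 1.5-fold above it in both.

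Promoters of the called genes were read for 4 motifs. RefSeq windows of the 250 bases before a transcription start (GRCm38.p6) were found for 5353 of the genes entered, for 383 of the 480 higher and 292 of the 383 lower. For each gene the start nearest to its annotated 5′ end was taken, with no limit on the distance. The core of the interferon-stimulated response element, 2 copies of GAAA with any 2 bases between them on either strand, was in 35 of the 292 lower promoters (12%), in 4 of the 383 higher promoters (1.04%), in 2.93% of all those entered and in 3.00% of all 20592 promoters read. Without the 18 genes of the interferon list itself, 30 of 285 lower promoters (10.5%) held it. That removal was partial, since those left included further genes of the Ifit, Ifi and Oas families, such as Ifit3b, Ifi206 and Oas1a. An AP-1 site, TGANTCA, was in 4.70% of the higher and 6.51% of the lower promoters, against 3.49% of those entered and 6.44% of all. The cyclic AMP response element TGACGTCA was in 7 of the higher (1.83%) and 1 of the lower promoters (0.342%), against 3.16% of those entered and 1.91% of all. The NR4A element AAAGGTCA was in 1 of the higher (0.261%) and 4 of the lower promoters (1.37%), against 0.878% and 1.19%. These are matches of letters in a window, with no measure of binding. The sequences below are those of 3 lower genes with the response element and of Ccr4, the marker most restricted to members, on the strand of each gene and with matches to that core or to TGANTCA in capitals.
Ifit1 (chr19:34640639-34640888, plus strand): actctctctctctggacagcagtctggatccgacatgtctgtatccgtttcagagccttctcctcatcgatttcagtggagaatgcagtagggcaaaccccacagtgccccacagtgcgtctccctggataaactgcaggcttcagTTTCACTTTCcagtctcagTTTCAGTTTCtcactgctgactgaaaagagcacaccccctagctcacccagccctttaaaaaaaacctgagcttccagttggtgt
Ifit3 (chr19:34583279-34583528, plus strand): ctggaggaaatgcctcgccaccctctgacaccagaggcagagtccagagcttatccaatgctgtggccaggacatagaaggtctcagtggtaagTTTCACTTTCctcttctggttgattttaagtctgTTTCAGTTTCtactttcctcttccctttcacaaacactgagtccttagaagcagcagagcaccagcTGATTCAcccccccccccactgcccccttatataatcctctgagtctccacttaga
B2m (chr2:122147437-122147686, plus strand): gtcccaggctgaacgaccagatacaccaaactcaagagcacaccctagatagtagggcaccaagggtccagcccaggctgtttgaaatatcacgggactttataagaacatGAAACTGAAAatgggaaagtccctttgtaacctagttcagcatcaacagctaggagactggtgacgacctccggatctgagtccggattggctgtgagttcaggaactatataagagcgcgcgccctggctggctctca
Ccr4 (chr9:114496545-114496794, minus strand): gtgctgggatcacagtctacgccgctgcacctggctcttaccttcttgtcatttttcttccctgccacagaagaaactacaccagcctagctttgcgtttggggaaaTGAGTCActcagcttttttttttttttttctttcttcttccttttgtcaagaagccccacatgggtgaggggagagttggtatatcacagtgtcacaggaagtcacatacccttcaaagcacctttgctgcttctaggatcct

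Ifit1 and Ifit3 encode proteins that bind foreign RNA. Each had 2 matches to the response element, Ifit3 also had 1 AP-1 match, and Ifit1 was at 67.5 and 56.0 CPM in members, against 168 and 140 CPM in mature cells. Ifit3 was at 15.6 and 9.30 CPM in members and 92.7 and 67.4 CPM in mature cells. B2m had 1 match. The windows of H2-K1 and Itm2a, not shown, were read as well and held no match to any of the 4 motifs. The Ccr4 window had 1 AP-1 match and none to the response element. It lies before a RefSeq start inside the gene, and not at the 5′ end of the coordinates given for Ccr4 above. The 4 higher genes with the response element were Chl1, Igf2bp3, Nol10 and Socs1.

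Members were not uniform. To grade them at equal depth, each was thinned to 1500 UMIs and placed by its Itm2a and Ccr9 UMIs at that depth: 106, 76, 121 and 286 knockout-labelled members had 0 to 1, 2, 3 to 4 and 5 or more, and 187, 150, 196 and 318 WT members. The score chose the cells, so only the other genes are of interest here. H2-K1 was at 1627, 1237, 1109 and 516 CPM along these steps in knockout-labelled members and at 1320, 1066, 847 and 322 CPM in WT members. H2-K1 was thus lowest in the cells with the most Itm2a and Ccr9, and was lower at each step in both libraries, although the intervals of the middle steps overlapped in the knockout-labelled library. Ms4a4b was at 599, 281, 379 and 87.5 CPM in knockout-labelled members and at 525, 453, 227 and 83 CPM in WT members. The ends of the grade were far apart in both, though the knockout-labelled steps were uneven. Ifi27l2a was at 1544 CPM at the lowest and 588 CPM at the highest step in knockout-labelled members, and at 973 and 326 CPM in WT members.

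Other genes climbed along the same grade. Izumo1r, the folate receptor FR4, was at 208, 192, 217 and 426 CPM in knockout-labelled and at 219, 228, 259 and 460 CPM in WT members, so that it was high at the last step alone. Bcl2 was at 331, 327, 487 and 542 CPM in knockout-labelled and 208, 328, 389 and 576 CPM in WT members. Tox was at 369 CPM at the lowest and 755 CPM at the highest step in knockout-labelled members and at 374 and 756 CPM in WT members. Stmn1, a microtubule regulator of cycling cells, showed no such grade, at 313 and 261 CPM at the ends in knockout-labelled and 212 and 235 CPM in WT members.

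**Figure D4:**
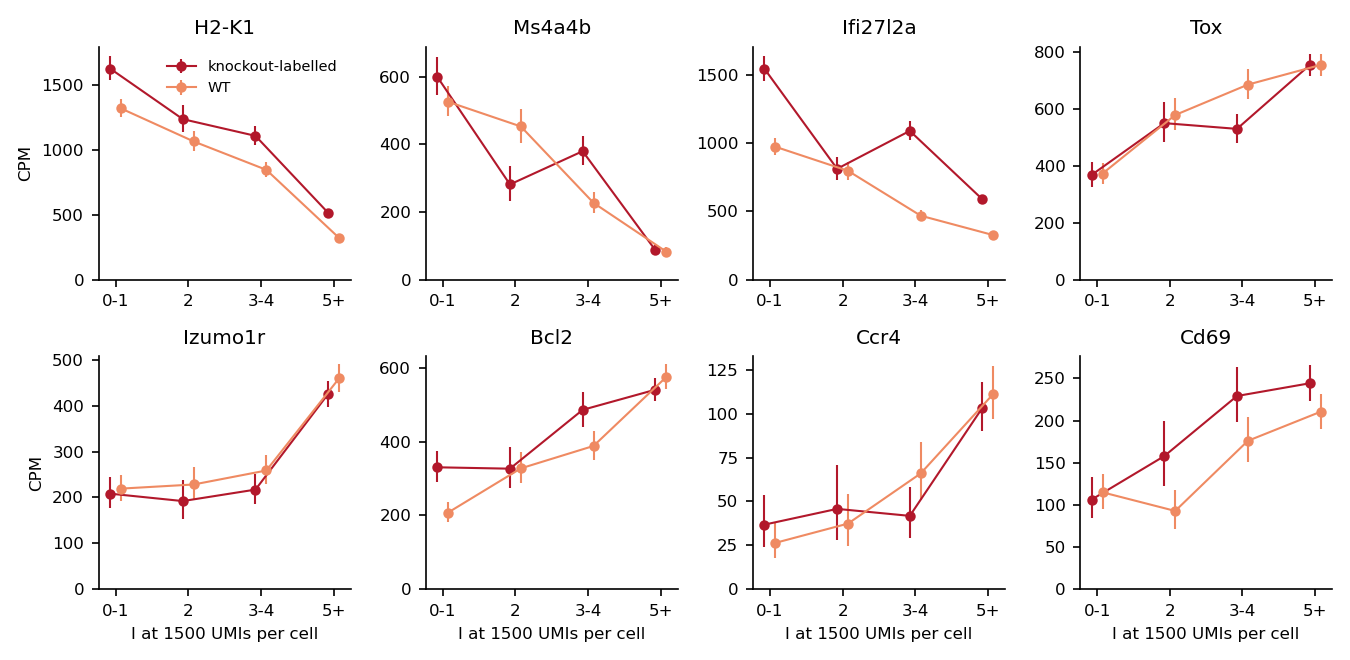
CPM of 8 genes in members grouped by their Itm2a plus Ccr9 UMIs after thinning to 1500 UMIs per cell, with levels from all UMIs of the cells and exact Poisson intervals. H2-K1, Ms4a4b and Ifi27l2a are lower, and Tox, Izumo1r, Bcl2, Ccr4 and Cd69 higher, at 5 or more than at 0 to 1 UMIs in both libraries.

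Members that held a Ccr4 UMI at 1500 UMIs per cell, 63 knockout-labelled and 71 WT, differed from the other members in genes outside the rule. Gata3 was at 279 CPM in Ccr4-positive and 102 CPM in Ccr4-negative knockout-labelled members, and at 193 and 91.8 CPM in WT members. Bcl2 was at 791 and 434 CPM in the knockout-labelled and at 681 and 391 CPM in the WT library. H2-K1 was at 515 and 959 CPM in the knockout-labelled and at 337 and 811 CPM in the WT library. In each of these genes the counting intervals of Ccr4-positive and Ccr4-negative members did not overlap, though such intervals leave out the spread between cells. Along the grade above, Ccr4 and Bcl2 were also higher and H2-K1 lower at the last step than at the first. The part of that grade in these differences was not tested. The Ccr4-positive cells had median depths of 6165 and 5359 UMIs, close to those of the other members (6734.5 and 5461.5 UMIs).

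Members with an Nr4a1 UMI at that depth, 79 knockout-labelled (13.4% of 589) and 100 WT (11.8% of 851), had higher levels of other genes of the receptor response. In mature cells these shares were 1.70% and 3.73%. Nr4a3, a relative of Nr4a1, was at 170 CPM in Nr4a1-positive and 8.48 CPM in Nr4a1-negative knockout-labelled members, and at 220 and 10.8 CPM in WT members. Egr2 was at 162 and 52.3 CPM in the knockout-labelled and at 146 and 24.0 CPM in the WT library. Dusp5, a phosphatase that acts on ERK, was at 308 and 52.3 CPM and at 321 and 50.7 CPM. Nfkbid, an atypical NF-kB inhibitor, was at 325 and 47.2 CPM and at 264 and 48.8 CPM. Cd274, which encodes the PD-1 ligand PD-L1, was at 105 and 33.1 CPM in the knockout-labelled and at 69.6 and 31.9 CPM in the WT library. Cd69 and Cd5 were higher as well, Cd5 at 965 and 593 CPM and at 1137 and 737 CPM. H2-K1 was not lower in the Nr4a1-positive cells, at 1093 and 888 CPM in the knockout-labelled and 839 and 762 CPM in the WT library. Unlike the Ccr4-positive members, the Nr4a1-positive members were thus not the ones with low H2-K1.

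Pdcd1 transcripts lay in few members. After their values had been seen, members with a Pdcd1 UMI at 1500 UMIs per cell were also set apart, 22 knockout-labelled and 31 WT cells. Id3, an E protein inhibitor induced by receptor signals, was at 926 CPM in Pdcd1-positive and 221 CPM in Pdcd1-negative knockout-labelled members and at 697 and 250 CPM in WT members. Cd274 was at 175 and 38.7 CPM in the knockout-labelled and 87.2 and 34.4 CPM in the WT library. Egr2 was at 259 and 61.1 CPM in the knockout-labelled library, with intervals apart, and at 65.4 and 37.4 CPM in the WT library, with intervals that overlapped. Members with an Nrgn UMI, 35 knockout-labelled and 30 WT cells chosen in the same way, had little Ms4a4b, at 42.6 CPM in Nrgn-positive and 278 CPM in Nrgn-negative knockout-labelled members and at 72.9 and 278 CPM in WT members. Chn2, a GTPase-activating protein for Rac, was higher in them, at 134 and 28.4 CPM in the knockout-labelled and 120 and 30.4 CPM in the WT library.

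The comparison of genotypes within the members asks how CD4 thymocytes that are not regulatory T cells differ when PD-1 is lacking. Between knockout-labelled and WT members, 115 of 6875 genes were at least 1.5-fold higher, 1.67% of those entered, and 89 were at least 1.5-fold lower, 1.29%, which is 2.97% in either direction. Of 6603 genes entered in mature cells, 1.74% were higher and 2.51% lower in the knockout-labelled library, 4.26% in either direction. Of 75 genes called higher in members and entered in both classes, 25 were also called higher in mature cells, and of 67 called lower, 22 were also lower. No gene was called in opposite directions. The ratio of the median gene entered in members was -0.01 on the log2 scale. With the total that left out those 3 kinds of gene, 185 were higher and 88 lower in members, and with cells weighted equally 157 were higher and 217 lower. Members of the 2 libraries also differed in median depth and in their place on the grade above. A larger part of the knockout-labelled than of the WT members was at its last step. The medians of 19 and 9 Itm2a plus Ccr9 UMIs are from unthinned cells, so they mix depth with that place. The part of depth and of place in these ratios was not tested. Among members of 3000 to under 9000 UMIs, 154 genes were higher and 98 lower, of which 80 and 49 were also called over all members.

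Interferon response genes were called in both directions between knockout-labelled and WT members, and 1 MHC class I gene was called. Of 14 interferon response genes entered, 4 were called higher (Ifi27l2a, Irf7, Usp18 and Iigp1), 1, Oas2, was called lower, and 12 were above 0, with a median log2 ratio of 0.30. The call in the lower direction depended on the setting. No gene of the list was called lower with the stricter cell filter, a threshold of 3, thinning, a minimum of 50 CPM or 3000 to under 9000 UMIs. Fewer genes entered under each of these. Ifi27l2a was at 886 CPM in knockout-labelled and 563 CPM in WT members, 1.57-fold higher (interval 1.5 to 1.65). Irf7, a factor that amplifies the interferon response, was at 142 and 93.0 CPM, 1.53-fold higher (1.35 to 1.73). Iigp1, an immunity-related GTPase, was at 64.3 and 23.4 CPM, 2.75-fold higher (2.20 to 3.46). The same list had a median of 0.42 in mature cells, where 5 of 17 genes entered were called higher and none lower. Iigp1 was 3.42-fold higher there, so the direction of the median and of Iigp1 was the same in both classes. Of 11 class I genes 10 were above 0, with a median of 0.25, and H2-Q7 was called, at 47.4 CPM in knockout-labelled and 19.6 CPM in WT members. With a minimum of 50 CPM, none of the 9 class I genes entered was called. Among the named genes outside these lists, Phf11b and Trim30d were 2.47-fold and 2.28-fold higher in knockout-labelled members. Trim30d had no ratio with the stricter cell filter, a threshold of 3, thinning, a minimum of 50 CPM or 3000 to under 9000 UMIs.

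Few genes of the T cell receptor response were called between genotypes. Of 19 genes entered, 1 was called higher and none lower, 9 were above 0 and the median was -0.02, with values of -0.06 to 0.18 over the other settings, and 5 genes were called higher after thinning to 1500 UMIs. The gene called was Egr2, at 67 CPM in knockout-labelled and 38.0 CPM in WT members, 1.76-fold higher (interval 1.46 to 2.13). An Egr2 UMI was found in 8.83% of knockout-labelled and 5.17% of WT members at 1500 UMIs per cell, against 0.943% and 1.49% of mature cells. Nr4a1 was at 201 and 204 CPM, a ratio of 0.984 (0.896 to 1.08). Egr1 was 1.22-fold higher (1.12 to 1.32) and Cd69 1.27-fold higher (1.15 to 1.40), both short of 1.5-fold. Cd5 was at 643 CPM in knockout-labelled and 781 CPM in WT members, a ratio of 0.823 (0.783 to 0.865). In mature cells Nr4a1 was 2.66-fold lower in the knockout-labelled library, at 15.9 CPM, against 42.4 CPM in WT cells. Il2, the cytokine in the title of the study, had no UMI in knockout-labelled members, which allows up to 0.733 CPM, and 2 UMIs in WT members.

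Genes of DNA replication lay above 0 in knockout-labelled members: of 11 proliferation genes entered, 2 were called (Top2a and Mcm3) and 11 were above 0, with a median of 0.40, although Mki67 had limited the cells. Top2a, a topoisomerase, was at 36.7 CPM in knockout-labelled and 16.1 CPM in WT members. E2f1, the S-phase factor, and Uhrf1, which maintains DNA methylation, were 3.62-fold (2.39 to 5.63) and 2.61-fold higher (1.92 to 3.57). Neither of them had a ratio among members of 3000 to under 9000 UMIs. With cells weighted equally the proliferation list had a median of 0.25, and 8 of 10 genes were above 0. Among members of 3000 to under 9000 UMIs the median of the list was 0.03 and 7 of 10 genes were above 0. In mature cells the median was also 0.03.

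Akr1c18, a steroid-reducing enzyme, had the largest ratio of the named genes. It was at 66.7 CPM in knockout-labelled and 4.75 CPM in WT members, 14.0-fold higher (interval 9.16 to 22.5), but its 273 UMIs lay in 19 of 601 knockout-labelled members and 76 of them in a single cell. In WT members its 23 UMIs lay in 3 of 945 cells. The log2 ratio of Akr1c18 was 3.81, against 2.68 with cells thinned to 1500 UMIs and 3.12 among members of 3000 to under 9000 UMIs. Nrgn was 2.95-fold higher (2.56 to 3.40), with 695 UMIs in 60 knockout-labelled and 279 UMIs in 68 WT members. Of its knockout-labelled UMIs, 19.4% were in a single cell, and among members of 3000 to under 9000 UMIs its log2 ratio was 0.23, below the threshold. Myo6 was 2.15-fold higher (1.77 to 2.63). H1f0, a linker histone, was at 110 CPM in knockout-labelled and 42.0 CPM in WT members, and P2rx7, an ATP-gated channel, at 30.5 and 13.0 CPM.

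The lowest ratios were those of Thy1 and Hspa8. Thy1, the surface glycoprotein CD90 (chromosome 9, 44043384 to 44048579), was at 56.7 CPM in knockout-labelled and 253 CPM in WT members, 4.46-fold lower (interval 3.87 to 5.16). It was 3.35-fold lower in mature cells. Hspa8, a constitutive chaperone, was at 518 CPM in knockout-labelled and 1818 CPM in WT members, 3.51-fold lower (3.35 to 3.68), and 3.58-fold lower in mature cells. The chaperone Hsph1 was the other heat shock gene called lower, of 15 entered with a median of -0.21. Gm42418, a locus that overlaps ribosomal RNA, was at 16853 CPM in knockout-labelled and 29373 CPM in WT members, and with it left out of the total the log2 ratios of Thy1 and Hspa8 were -2.18 and -1.83. Among members of 3000 to under 9000 UMIs they were -2.53 and -1.89, so both genes stayed past 1.5-fold at like depth. Dntt, the terminal transferase of double-positive cells, was at 13.4 CPM in knockout-labelled and 40.9 CPM in WT members. Of the 198 WT UMIs of Dntt, 35 were in a single cell. Its log2 ratio was -1.61, against -0.89 with 3 UMIs and 3 times in place of 2 in the rule for members and -1.11 among members of 3000 to under 9000 UMIs. Vav3, an exchange factor below the receptor, and Traf1, an adaptor of TNF receptors, were 2.14-fold and 2.07-fold lower. The remaining genes by this rule were Tmie, Irf2bp2, Ccdc191, Ankrd37, Pign, Wdr78 and Atp10a, all between 2.01-fold and 2.54-fold lower. Atp10a stayed short of 1.5-fold among members of 3000 to under 9000 UMIs. Ccdc191 had no ratio there, nor with the stricter cell filter, a threshold of 3, thinning or a minimum of 50 CPM.

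**Figure D5:**
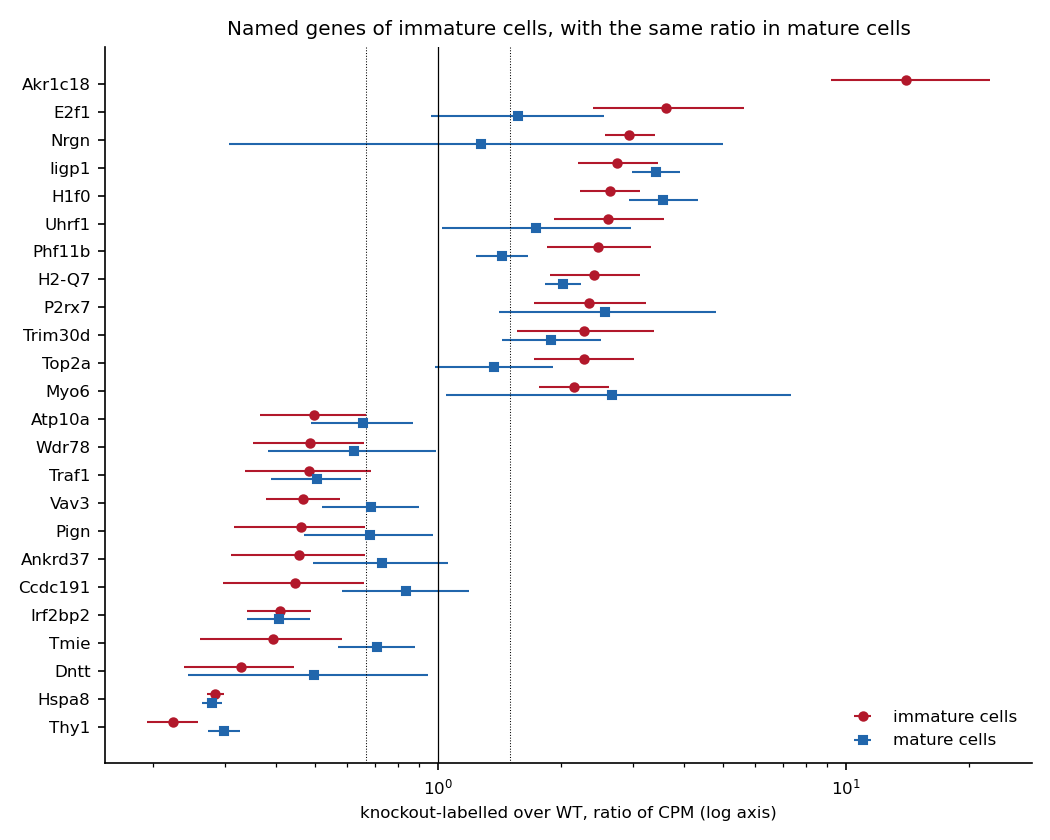
Ratio of knockout-labelled over WT CPM (log axis) of the 24 genes named for members, in immature (red circles) and mature (blue squares) cells, with exact conditional binomial intervals for counting error and dotted lines at 1.5-fold. Hspa8, Thy1, Irf2bp2, Iigp1 and H1f0 were off in the same direction in both classes; the mature ratio of Akr1c18 is not drawn because WT mature cells held 1 UMI.

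The other lists held few or no called genes. Of 14 lineage regulators, 15 mature and egress genes, 12 survival genes and 6 chemokine receptors entered, none was called in either direction. The share over all genes entered was 2.97%, so few calls would be looked for in lists this short. Some genes were called under other settings. Among them, 2 lineage regulators were higher at 3000 to under 9000 UMIs, and 2 survival genes were higher after thinning to 1500 UMIs. Zbtb7b was at 112 CPM in knockout-labelled and 151 CPM in WT members, a ratio of 0.741 (interval 0.658 to 0.834). Bcl2 was at 470 and 426 CPM in members, a ratio of 1.10 (1.04 to 1.17), against 1.98 (1.80 to 2.17) in mature cells. Among co-inhibitory receptors, Pdcd1 itself was called, at 1.51-fold higher (1.17 to 1.96), just past the threshold. None of the 6 receptors entered was called with at least 1000 genes and under 5% mitochondrial UMIs per cell, with 3 UMIs and 3 times in the rule for members, or with the total without Gm42418. Ccr4 did not differ beyond counting error, at a ratio of 1.03 (0.876 to 1.20).

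Levels of markers of other cell types differed by type in members. Summed over 12 markers of gamma-delta and innate-like T cells, the level was 36.4 CPM in knockout-labelled and 15.9 CPM in WT members, and 6 and 3 of the markers were at 0. Over 12 myeloid and dendritic markers it was 249 and 207 CPM, against 301 and 292 CPM in mature cells. Cst3, Cd74 and Ctss were the highest, and Cd74 was found in 101 knockout-labelled and 121 WT members. Between members and mature cells, Cd74 was called higher in members and Ctss lower. Of 69 Tyrobp UMIs in knockout-labelled members 64 were in a single cell, and of 25 in WT members 21 were. Siglech had 42 UMIs in 2 knockout-labelled members and none in WT members. Over 8 B cell markers the sum was 45.7 and 52.1 CPM, and all 6 erythroid markers were at 0 in both. The part of such cells in the ratios between libraries was not tested.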

How the data were processed

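The authors deposited raw UMI counts per gene and barcode from a 10x 5′ kit, as Cell Ranger matrices against mm10 per the submitters' processing notes, which name version 6.2.1, while the file header names 6.1.2. Nothing was normalized before deposit. Barcodes with at least 500 genes and less than 10% mitochondrial UMIs were kept, members and mature cells were set by the transcript rules, and UMIs were summed over cells per class and library and given as CPM, counts per 1000000 UMIs of the class. The members, the 21 gene lists and the rules were chosen with earlier results of these data known. With 1 library per group no test was made. CPM have exact Poisson, ratios exact conditional binomial and shares exact Clopper-Pearson intervals at 95%, which cover counting error only. A gene was called at 1.5-fold, and for immature against mature cells only when so in both libraries. Genes entered at 20 CPM in either group and 20 UMIs. Floors use 3 counts.

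Named genes were the 12 highest and 12 lowest called genes per comparison with at least 100 UMIs and the same direction with cells weighted equally, leaving out the rule genes, Pdcd1, unnamed models, receptor segments and genes that are sex-linked or encode mitochondrial transcripts, ribosomal proteins or hemoglobins. Sets of members by Nrgn and Pdcd1 were chosen after values had been seen. Doublets were kept, and barcodes with the highest Scrublet scores were removed in an alternative. Other alternatives were a stricter filter, a threshold of 3, thinning to 1500 UMIs, other totals and centring, equal weights and other minimum levels. Coordinates are from GENCODE vM21, where 32235 of 32285 gene identifiers were found, and promoter windows from RefSeq. In counts simulated for the knockout-labelled and WT members, 195 of 200 genes changed 2-fold were recovered (97.5%), and 13 of 6604 unchanged genes were called (0.197%). With 1 library per genotype, differences between libraries could not be estimated for the simulation. Its shares therefore do not tell how many of the calls between genotypes would recur. Python 3.11.15, numpy 2.4.6, scipy 1.17.1, pandas 2.3.3, scanpy 1.11.5 and matplotlib 3.10.9 were used. Some genes of the lists are counted but not reported by name here.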

Additional observations from a re-analysis of the deposited data

Results flagged for a closer look

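Gzma, which encodes granzyme A of cytotoxic cells, was higher in knockout-labelled than in WT members, by 4.89 on the log2 scale, while in mature cells the ratio had the opposite direction. The difference between the classes was not tested. Of its 50 UMIs in knockout-labelled members, 43 were in 1 cell and all lay in 5 cells, and WT members held 2 UMIs in 1 cell.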

How the results depend on the processing

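No paired analysis was possible because each genotype had 1 library. For the same reason no replicate could be left out. Under a threshold of 3 and 3 times, members were 30.1% of knockout-labelled and 24.7% of WT cells. Their shares were 35.6% and 35.7% with the stricter cell filter and 36.2% and 36.3% among cells of 3000 to under 9000 UMIs, a range chosen after seeing the data, as were the total without Gm42418 and the removal of barcodes shared between libraries. Between immature and mature cells, 308 genes were higher when centred on the median gene. With no minimum level 1008 were higher and 591 lower, and with a minimum of 50 CPM 244 were higher. Between knockout-labelled and WT members, thinning to 1500 UMIs gave 428 higher and 463 lower, of which 69 and 53 were also called without thinning. The total without receptor segments and the mitochondrial and ribosomal protein genes gave 185 higher, and equal weights gave 217 lower. With no minimum level 655 were higher and 458 lower, and with a minimum of 50 CPM 38 and 28. More or fewer genes entered under the minimum levels, and for the other settings the cause was not tested. No ratio of a named gene that could be computed changed sign under these settings. For equal weights this was fixed in advance, since the rule for named genes required the same direction there. Genes that did not enter under a setting had no ratio there. List medians near 0 did change sign, such as that of the T cell receptor response genes between genotypes. Of the ratios of named genes, 514 stayed within counting error and 42 moved between classes, and 243 stayed and 16 moved between genotypes. Of the list medians, 153 stayed within 0.1 and 26 moved. Depth per cell limits the shares of cells with a UMI, and 1 library per genotype limits every difference between genotypes.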
